A study of Mus musculus with 12 samples.

Results

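The genes of the respiratory chain and ATP synthase were examined as a pair of sets in the eyelid transcriptome of mice on a high-fat or a standard diet, collected at 3 times of day. The mitochondrial set held the genes whose symbol starts with mt-, and the nuclear set held the genes named Ndufa, Ndufb, Ndufc, Ndufs or Ndufv with a number, Sdha to Sdhd, and those whose names begin with Uqcr, Cox4 to Cox8 or Atp5. These rules found 98 of the 21936 genes in the table, 85 of them nuclear and 13 mitochondrial. Of these, 94 were above 1 FPKM (reads scaled to exon length and to library depth) in at least 2 of the 12 libraries and were tested, 82 nuclear and 12 mitochondrial, among 13228 tested genes in all.

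Male C57BL/6 mice, 6 to 8 weeks old at the start, were kept under 12 h of light and 12 h of dark. They received a high-fat diet with 60 kcal% fat or a standard diet with 10 kcal% fat, for 3 months according to the sample labels and 4 months according to the series text. The 3 collections were at 9h, 15h and 21h, with 2 libraries for each diet and time. The labels name the meibomian gland and the series text the whole upper and lower eyelids. Depth recovered from the values was 14096363 to 17889159 reads per library. Meibocyte markers were high in every library, with Scd1, a fatty acid desaturase, at 2993 to 5270 FPKM. Skeletal muscle markers were high as well, with Acta1, the skeletal muscle actin, at 721 to 2083 FPKM. Ucp1, the defining gene of brown adipocytes, stayed at or below 0.13 FPKM. On the same marker list Zic1 stayed at or below 0.60 FPKM, and Cidea was at 437 to 755 FPKM. The sources do not say how many mice went into a library, and the p-values below cover only the spread between these libraries. In whole tissue, fewer cells of a type and less RNA per cell cannot be told apart.

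Complexes I to IV of the inner mitochondrial membrane pass electrons from NADH and succinate to oxygen and build a proton gradient, which complex V, the ATP synthase, uses to make ATP. Mitochondrial DNA encodes a few hydrophobic core subunits of complexes I, III, IV and V, transcribed as long polycistronic RNAs inside the organelle. All other subunits, and every subunit of complex II, are nuclear genes whose products are imported. Skeletal muscle uses its own isoforms of some complex IV subunits.

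The 12 tested mitochondrial genes fell into groups by level that went along with how much of their sequence is shared with other genes. A group of 7 tested genes lay between 1412 and 10663 FPKM on average over the 12 libraries. These were mt-Co1, the catalytic subunit of complex IV, at 10663 FPKM, mt-Cytb, cytochrome b of complex III, at 5423 FPKM, and the complex I subunits mt-Nd1 at 4545, mt-Nd2 at 2776, mt-Nd4 at 2199, mt-Nd5 at 1706 and mt-Nd6 at 1412 FPKM. The other 5 tested genes lay between 5.12 and 113 FPKM. They were mt-Co2 at 113 and mt-Co3 at 54.3 FPKM, both core subunits of complex IV, mt-Atp6, the proton channel subunit of complex V, at 51.1 FPKM, and the complex I subunits mt-Nd3 at 8.43 and mt-Nd4l at 5.12 FPKM. In mt-Co2, mt-Co3, mt-Atp6, mt-Nd3 and mt-Nd4l at least 90% of the stretches of 50 bases also occur in the transcript of another gene, and in each of the 7 abundant genes this share is under 75%. The plot of mitochondrial genes in map order shows the low genes side by side.

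The shared stretches of these 5 genes occur in annotated unprocessed pseudogenes on chromosome 1 of GRCm38, in 24611535 to 24616197 on the minus strand, where 7 such genes carry letters from the end of mt-Co1 to the start of mt-Nd4 in the same order. Their span is 4663 bases. Gm29216 matches the end of mt-Co1, Gm28661 matches mt-Co2, Gm10925 matches mt-Atp6, Gm28437 matches mt-Co3, Gm28438 matches mt-Nd3, Gm10222 matches mt-Nd4l and Gm28439 matches the start of mt-Nd4. The smaller shared parts of mt-Nd2 and mt-Nd5 lie in other genes, and of the stretches of mt-Co1 the part found in Gm29216 is 28.7%, out of 51.1% in 3 genes. A read from such a stretch has a place of equal fit in the nuclear genome, and the sources used here do not give how the authors' counting treated it. The sequences below show where the identity begins and ends (GENCODE release 21 transcripts, GRCm38, plus strand of chromosome M, 5′ to 3′). Capitals mark bases that lie in a stretch of 50 bases also found in 1 of these chromosome 1 genes. In mt-Co1 (chrM:6334-6453, bases 1007 to 1126 of the gene) the identity starts at base 1067, in mt-Nd4 (chrM:10983-11102, bases 817 to 936) it ends at base 876, the first 60 bases of mt-Co2 (chrM:7013-7072) lie inside it, and the first 60 bases of mt-Cytb (chrM:14145-14204) lie outside it.
mt-Co1: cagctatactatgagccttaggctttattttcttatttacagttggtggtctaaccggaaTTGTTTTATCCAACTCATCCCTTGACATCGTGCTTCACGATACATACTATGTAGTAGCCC
mt-Nd4: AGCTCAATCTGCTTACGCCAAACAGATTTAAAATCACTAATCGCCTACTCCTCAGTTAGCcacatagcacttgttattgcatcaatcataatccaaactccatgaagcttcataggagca
mt-Co2: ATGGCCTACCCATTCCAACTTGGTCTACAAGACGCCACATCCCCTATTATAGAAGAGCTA
mt-Cytb: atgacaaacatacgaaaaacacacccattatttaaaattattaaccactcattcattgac

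mt-Atp8, the other mitochondrial subunit of complex V, did not pass the filter. It was listed at 0 in 9 libraries and reached 0.33 FPKM at most. None of its stretches of 50 bases occurs in the transcript of another annotated gene. It lies between mt-Co2 and mt-Atp6. The distance of 233 bases from base 681 of mt-Co2 to mt-Atp6 is matched by 233 bases between Gm28661 and Gm10925 on chromosome 1. The letters of that stretch of chromosome 1 were not read here. The last 43 bases of mt-Atp8 are also the first bases of mt-Atp6. Gm10925 matches mt-Atp6 from base 1 on, so it carries these 43 bases. They are shown in capitals in this stretch (chrM:7867-7969, plus strand).
mt-Atp8: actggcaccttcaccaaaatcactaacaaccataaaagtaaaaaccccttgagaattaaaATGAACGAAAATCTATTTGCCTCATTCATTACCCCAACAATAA

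**Figure D1:**
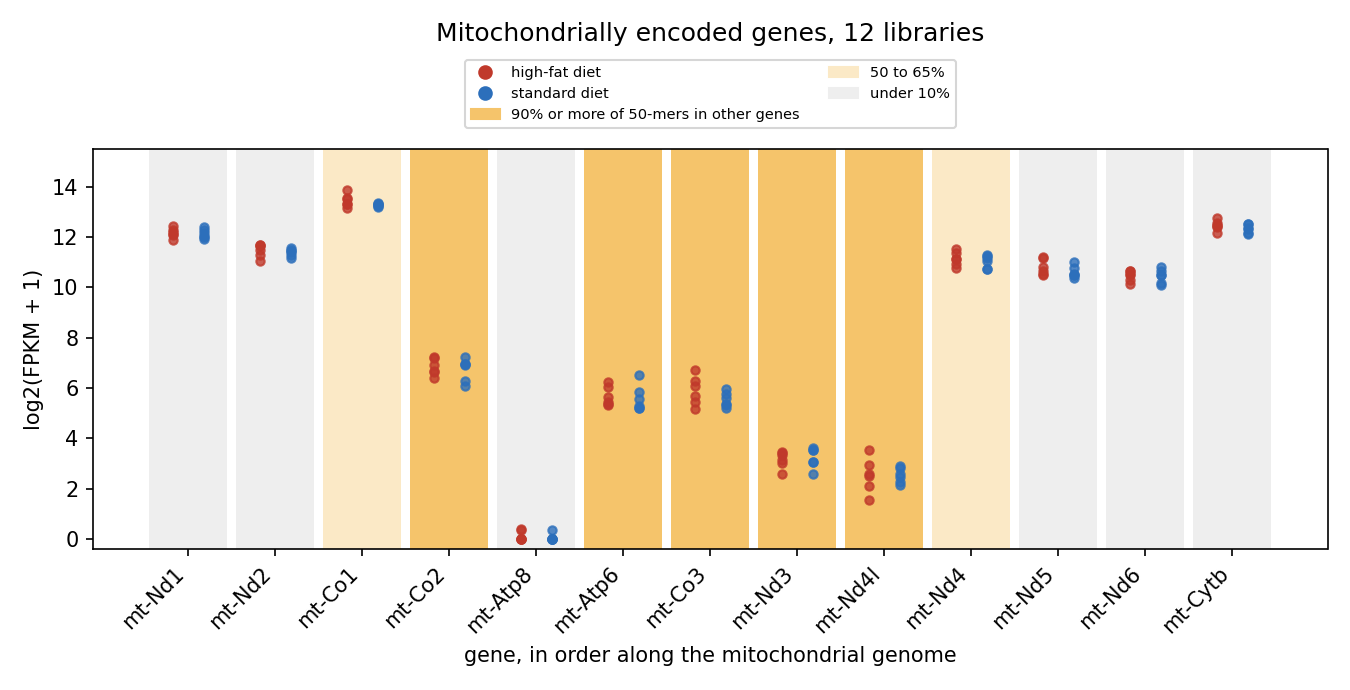
Level of each mitochondrial gene, as log2(FPKM + 1), in map order, with 1 point per library, high-fat left of standard diet, and shading by the share of 50-base stretches found in other genes. The 5 genes with a share of 90% or more and mt-Atp8 sit below all the others in every library.

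The nuclear members had a median level of 62.9 FPKM, and 22 of 82 exceeded 100 FPKM. The highest in complex II was Sdhd, a membrane anchor, at 87.6 FPKM. In complex III it was Uqcr10, a small accessory subunit, at 237 FPKM, in complex IV Cox8a at 354 FPKM, and in complex V Atp5a1, the alpha subunit, at 325 FPKM. The lowest in complexes I to V were Ndufb2 at 1.28, Sdhc at 40.8, Uqcrc2 at 62.8, Cox6b2 at 2.26 and Atp5o at 2.50 FPKM, in that order.

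The annotation behind the values bears on the low members. The FPKM are per kilobase of all merged exons of a gene, and in 12 of the 82 nuclear members these are over 4 times as long as the coding transcript. Ndufb2, an accessory subunit of complex I (chromosome 6), has 5628 bases of merged exons around a coding transcript of 455 bases. Atp5l, subunit g of ATP synthase, has 6443 around 544 bases and averaged 5.32 FPKM. Atp5o, the stalk subunit OSCP, shares 48% of its exon bases with other annotated genes, and a second entry of the same symbol was listed at 0. Cox7b2 and Cox8c, isoforms known from testis, were also at 0 in all 12 libraries. Over 10% of the 50-base stretches occurred in other genes for 19 of the 82 nuclear members, with a highest share of 41.6%. Ndufb2 was above 1 FPKM in 9 libraries, and the 3 others were all from 9h.

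High-fat feeding gave no member past the test at any time. Averaged over the 3 times, 0 of 94 members were called by limma (adjusted p under 0.05, Benjamini-Hochberg over all genes tested), against 1.98% of all genes. At an unadjusted p under 0.05 the members were 10, all nuclear and all lower. That compares with 9.4% of all genes lower and 4.66% higher at that level. Limma-voom, a related fit with weights and another scale, run on recovered reads, called none and counted 11. The median log2 fold change of high-fat over standard diet was -0.11 for the 82 nuclear members and 0.10 for the 12 mitochondrial members, beside -0.01 for all genes tested. A total of 67 nuclear members were below 0, and 10 mitochondrial members were above 0. Without the high-fat 15h library 2 the mitochondrial median was -0.0049.

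Ndufa4 had the smallest p in the averaged diet comparison. It was first described in complex I and is now placed with complex IV. Its levels were 133 and 155 FPKM in high-fat tissue at 9h, against 191 and 146 FPKM on standard diet. At 15h they were 109 and 124 FPKM on high-fat and 160 and 161 FPKM on standard diet, and at 21h they were 129 and 144 FPKM on high-fat and 196 and 153 FPKM on standard diet. The diets overlapped at 9h and not at 15h or 21h. The averaged log2 fold change was -0.34 ± 0.10 (SE, limma adjusted p = 0.143). The next were Ndufa12 and Ndufa5, accessory subunits of complex I, with -0.21 ± 0.07 (adjusted p = 0.188) and -0.25 ± 0.09 (adjusted p = 0.260, limma). Ndufa4l2, the paralogue of Ndufa4 that hypoxia induces, differed by -0.23 ± 0.10 (limma adjusted p = 0.348).

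At 9h the sets parted. The mitochondrial members had a median log2 fold change of 0.36 in high-fat tissue and 11 of 12 were above 0, while the nuclear members had a median of 0.00 with 41 of 82 on each side, beside 0.02 for all genes tested. The 12 mitochondrial members averaged 8.88 and 8.89 on the log2(FPKM + 1) scale in the high-fat libraries and 8.60 and 8.55 in the standard-diet libraries. Both high-fat libraries were above both standard-diet libraries for 10 of the 12 genes, against 15% of all genes. The 12 genes come from the same 2 libraries per diet, so they are not 12 independent comparisons. The 2 high-fat libraries at 15h, which share diet and time, averaged 9.05 and 8.51 for the same genes. The share of mt- genes in the summed FPKM was 10.1% and 9.46% in high-fat tissue and 7.75% and 8.10% on standard diet. Limma called none of the 94 members and none of all 13228 genes (0% called). At an unadjusted p under 0.05 it counted 2 members, both mitochondrial and higher, against 4.36% of all genes lower and 2.86% higher; limma-voom called none and also counted 2. Without the high-fat library 7, 1 member was called.

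mt-Nd6, a complex I subunit and the only one of these genes on the minus strand, stood at 1422 and 1474 FPKM in high-fat tissue at 9h and 1154 and 1075 FPKM on standard diet. Its log2 fold change was 0.38 ± 0.16 (SE, unadjusted p = 0.0397, limma adjusted p = 0.667). mt-Co2 was at 120.3 and 102 FPKM on high-fat and 76.5 and 66.4 FPKM on standard diet (0.63 ± 0.27, limma adjusted p = 0.674), and mt-Nd3 at 7.91 and 8.97 FPKM on high-fat and 7.28 and 4.98 FPKM on standard diet (0.42 ± 0.20, limma adjusted p = 0.738). In these 3 genes the diets did not overlap at 9h. mt-Co1 was at 12038 and 11777 FPKM on high-fat and 9690 and 10037 FPKM on standard diet. The exception in direction was mt-Nd4l, with 1.93 and 10.5 FPKM on high-fat and 6.15 and 6.40 FPKM on standard diet. Over the 7 genes with under 75% shared stretches alone, the median was 0.30, and all 7 were above 0.

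Markers of other cell types also differed in sign at 9h, and none of them was called. Adipocyte markers had a median log2 fold change of 0.36, with 7 of 8 above 0, fibroblast markers one of 0.24, with 6 of 6 above 0, and endothelial markers one of 0.12, with 6 of 6 above 0. T cell markers had a median of -0.68, with 8 of 8 below 0, conjunctival markers -0.45, with 5 of 5 below 0, macrophage markers -0.41, with 6 of 8 below 0, and keratinocyte markers -0.17, with 8 of 10 below 0. The mean log2(FPKM + 1) of adipocyte markers was 3.21 and 2.95 on high-fat and 3.01 and 2.41 on standard diet, and the diets overlapped. Fibroblast markers, at 6.53 and 6.03 on high-fat and 6.18 and 5.91 on standard diet, overlapped too. So did endothelial, macrophage and keratinocyte markers. Conjunctival markers did not, at 6.89 and 6.36 on high-fat and 7.18 and 7.03 on standard diet. T cell markers did not overlap, at 1.29 and 1.13 on high-fat and 2.37 and 1.87 on standard diet. Skeletal muscle and meibocyte markers lay near 0, with medians of 0.03 and -0.0041. The part of these cell types in the values of the mitochondrial members was not tested.

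**Figure D2:**
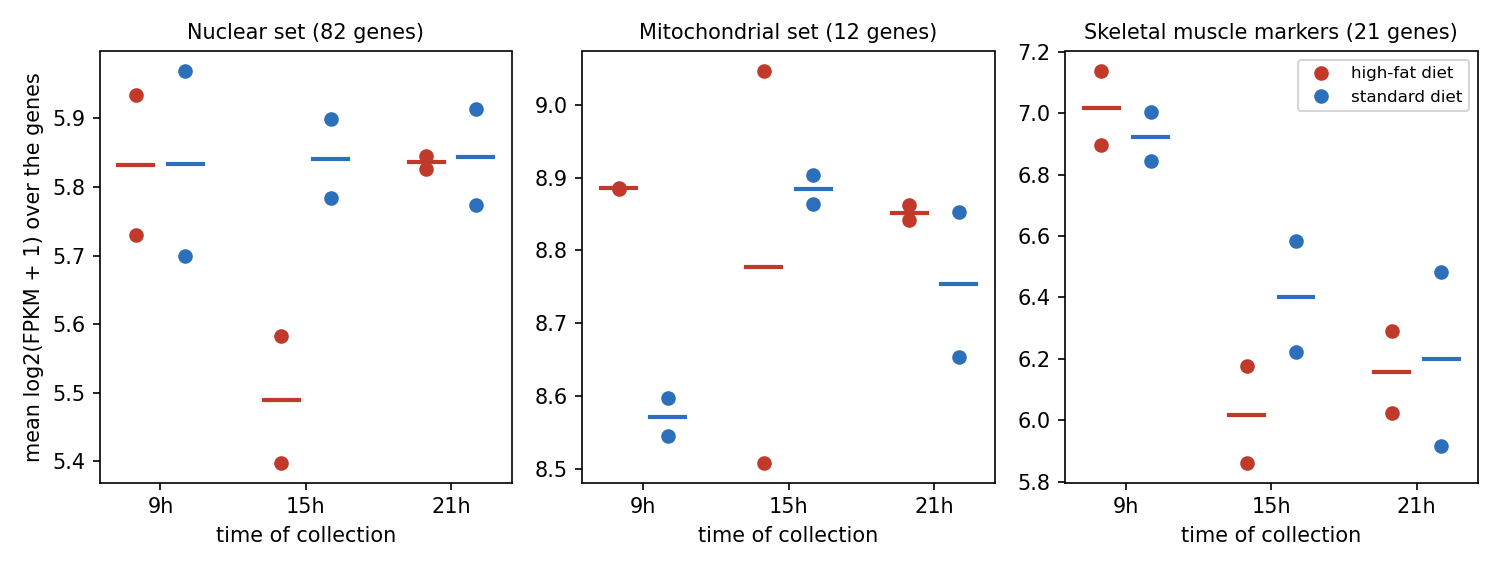
Mean log2(FPKM + 1) over the genes of each set in every library, by time, with high-fat left of standard diet and bars at group means. At 15h both high-fat libraries are the lowest of all 12 for the nuclear set (5.40 and 5.58), and the 2 high-fat libraries span the whole range of the mitochondrial set (9.05 and 8.51).

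At 15h the nuclear members were lower on high-fat diet as a body. Their median log2 fold change was -0.36, with 76 of 82 below 0, beside -0.03 and 56.7% below 0 for all genes tested. The set averaged 5.40 and 5.58 on the log2(FPKM + 1) scale in the high-fat libraries and 5.90 and 5.78 in the standard-diet libraries. Both high-fat libraries were below both standard-diet libraries for 60 of the 82 genes, against 26.7% of all genes, and for none was it the other way round. These genes too come from the same 2 libraries per diet and are not independent of each other. Limma called none of the 94 members, against 0.0605% of all genes. At an unadjusted p under 0.05 it counted 43 nuclear members, all lower, against 8.35% of all genes lower and 3.23% higher at that level; limma-voom called none and counted 43 of all 94 members. The smallest adjusted p of a member was 0.188. By complex, the median was -0.42 for the 35 members of complex I, -0.16 for the 4 of complex II, -0.27 for the 8 of complex III, -0.43 for the 16 of complex IV and -0.31 for the 17 of complex V.

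The 3 members with the smallest p at 15h were accessory subunits of complex I. Ndufa5 was at 27.3 and 26.9 FPKM on high-fat and 48.2 and 38.6 FPKM on standard diet (log2 fold change -0.65 ± 0.16 SE, limma adjusted p = 0.188). Ndufa12 was at 29.9 and 28.3 FPKM on high-fat and 43.0 and 38.4 FPKM on standard diet (-0.47 ± 0.12, limma adjusted p = 0.198). Ndufa6 was at 46.8 and 50.9 FPKM on high-fat and 70.5 and 67.1 FPKM on standard diet (-0.49 ± 0.13, limma adjusted p = 0.208). The diets did not overlap in any of these genes. Cox8b, the muscle isoform of a small complex IV subunit, had the lowest value of all members, at 29.9 and 41.6 FPKM on high-fat and 77.7 and 70.5 FPKM on standard diet (-1.05 ± 0.28, limma adjusted p = 0.223). Sdha, the flavoprotein of complex II, was at 56.7 and 51.2 FPKM on high-fat and 59.5 and 52.2 FPKM on standard diet, and here the diets overlapped.

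**Figure D3:**
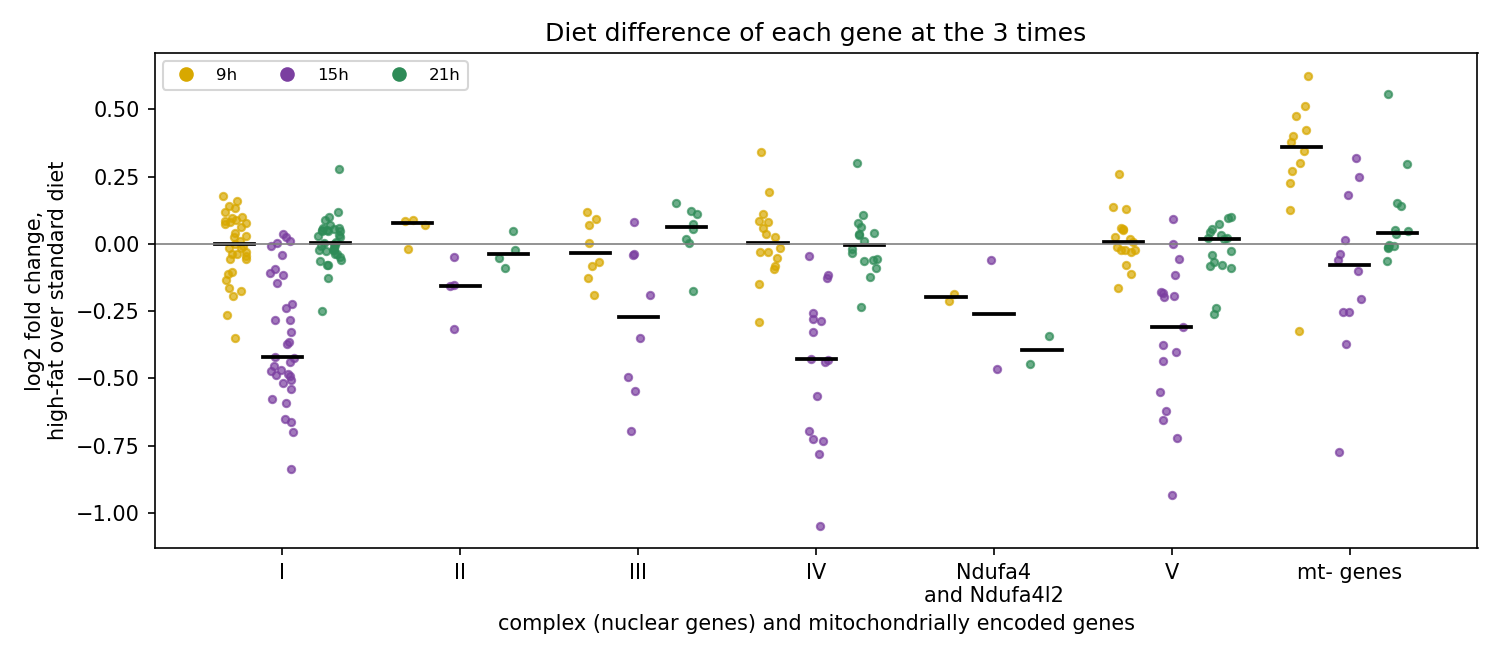
Log2 fold change of high-fat over standard diet for each of the 94 tested members at 9h, 15h and 21h, by complex, with black bars at medians. The 15h medians are below 0 in each nuclear group, and the 9h median of the mitochondrial genes is 0.36.

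The mitochondrial members did not share one direction at 15h. The high-fat library with number 2 was the highest of all 12 for the set, at 9.05, and the one with number 6 was the lowest, at 8.51, with 8.86 and 8.90 on standard diet. Their shares of the summed FPKM were 11.8% and 7.70%, against 9.11% and 8.57%. mt-Co1 was at 14901 and 9046 FPKM on high-fat and 10479 and 10000.4 FPKM on standard diet. The median log2 fold change of the set was -0.08; it was -0.42 without the high-fat library 2 and 0.22 without the high-fat library 6. Apart from this stood mt-Nd6, at 1234 and 1106 FPKM on high-fat and 1603 and 1427 FPKM on standard diet (-0.37 ± 0.16, limma adjusted p = 0.416), and mt-Nd3, at 5.06 and 7.14 FPKM on high-fat and 10.7 and 11.3 FPKM on standard diet, both without overlap (mt-Nd3 -0.77 ± 0.20, limma adjusted p = 0.215).

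The diet difference at 15h varied with transcript length. The 31 nuclear members with a coding transcript under 600 bases had a median of -0.51, the 26 from 600 to 1000 bases a median of -0.35, and the 25 over 1000 bases a median of -0.06. All genes tested went the same way and less far, with medians of -0.27 for 329 genes under 600 bases, -0.21 for 873 genes of 600 to 1000 bases and -0.02 for 11997 genes over 1000 bases. Spearman's rho of fold change and length was 0.63 over the 82 nuclear members and 0.36 over all 13199 genes with a coding transcript, as a description across genes that share libraries. With this trend over all genes taken out, the median of the nuclear members at 15h was -0.14, and none was called. Per library, the short nuclear members deviated from their gene means by a median of -0.53 in the high-fat library 2 and -0.23 in the high-fat library 6, against 0.16 and 0.07 in the standard-diet libraries 2 and 3. The mitochondrial members under 600 bases, mt-Nd3, mt-Nd4l and mt-Nd6, had a median of -0.37 at 15h, with all 3 below 0. The 4 from 600 to 1000 bases had a median of -0.16 and the 5 over 1000 bases one of 0.02. mt-Nd3 rested on 27 to 62 reads per library at 15h. The part of length in the diet difference was not tested beyond this.

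**Figure D4:**
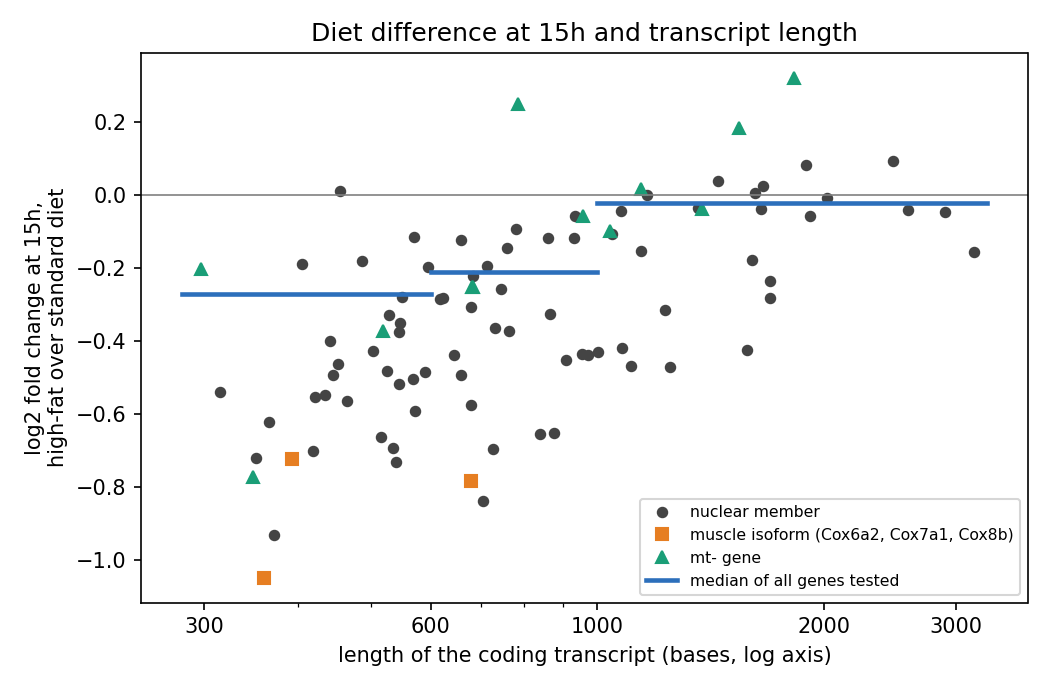
Log2 fold change at 15h, high-fat over standard diet, against the length of the coding transcript (log axis) for the tested members, with blue lines at the medians of all genes tested in 3 length classes (-0.27, -0.21 and -0.02). Short nuclear members lie lowest, and those over 1000 bases have a median of -0.06.

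Other gene groups also lay below 0 at 15h. Of the 80 tested cytosolic ribosomal protein genes, 77 were below 0, with a median of -0.29, and of the 77 mitochondrial ribosomal protein genes 72 were below 0, with a median of -0.23. Of the 41 tested assembly factors 33 were below 0, with a median of -0.14, while the 34 genes of mitochondrial DNA expression had a median of -0.02 and the 14 genes of the tricarboxylic acid cycle one of -0.05. None of these genes was called at 15h. Of the skeletal muscle markers 19 of 21 were below 0, with a median of -0.27, and their mean log2(FPKM + 1) was 6.18 and 5.86 in the high-fat libraries and 6.58 and 6.22 in the standard-diet libraries. The other 5 markers of that list, Myl2, Tnnc2, Myh7, Myh8 and Tnnc1, stayed below 1 FPKM in all libraries. Without the 3 muscle isoforms of complex IV the nuclear set differed by -0.33 in mean log2(FPKM + 1), and by -0.35 with them. T cell markers had a median of -0.80, with 8 of 8 below 0, and meibocyte markers 0.32, with 10 of 12 above 0. Keratinocyte markers had a median of 0.25 and acinar markers -0.14. The mean log2(FPKM + 1) of keratinocyte markers was 7.18 in the high-fat library 2 and 5.84 in the high-fat library 6. On standard diet it was 6.69 and 5.89. That of acinar markers was 3.00 and 2.87 on high-fat, and 3.14 and 3.88 in the standard-diet libraries 2 and 3. Fibroblast markers had a median of -0.61, macrophage markers -0.73 and red blood cell markers -1.06, and here the high-fat library 2 stood apart. The mean log2(FPKM + 1) of fibroblast markers was 5.46 in the high-fat library 2 and 6.49 in the high-fat library 6, against 6.49 and 6.54 on standard diet. That of macrophage markers was 3.44 in the high-fat library 2 and 4.99 in the high-fat library 6, against 4.74 and 4.97 on standard diet. Without the high-fat library 2 the nuclear median of the diet difference at 15h was -0.26. T cell markers were lower on high-fat diet in the average over times too, where 5 of 8 were called. The part of these cell types in the values of the members was not tested.

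At 21h both sets lay near 0. The median log2 fold change was 0.01 for nuclear and 0.04 for mitochondrial members, beside -0.01 for all genes tested. Limma called no member, against 0.00756% of all genes, and 1 of 94 had an unadjusted p under 0.05, against 3.85% of all genes lower and 1.53% higher; limma-voom called none and counted 1. That member was Ndufa4l2, at 54.7 and 46.9 FPKM on high-fat and 67.8 and 71.2 FPKM on standard diet, without overlap (-0.45 ± 0.18, limma adjusted p = 0.811). Ndufa4 differed by -0.34 ± 0.17 and Ndufb2 by 0.28 ± 0.18 (limma adjusted p = 1.00 for both).

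The difference between the times was itself tested as an interaction of diet and time. No member was called by limma and no gene in all (0% called). At an unadjusted p under 0.05 there were 14 of 94 members, against 3.06% of all genes; limma-voom called none and counted 13. The smallest p belonged to mt-Nd3, Ndufa6 and Ndufv3, an accessory subunit of complex I, each with a limma adjusted p of 0.999. A diet effect at 15h that differs from the one at 9h or 21h was therefore not shown for any single member.

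Time of day gave the only calls among the members. Between 9h and 21h, over both diets, limma called 6 of the 82 nuclear and none of the 12 mitochondrial members, against 6.02% of all genes, so that the share of members called, 6.38%, lay near that of all genes. Large subunits fell, namely Uqcrc2, Uqcrc1, Atp5b, Ndufv1 and Sdha, and Ndufb2 rose. Among all genes 3.43% were called lower and 2.59% higher. The median log2 fold change of 21h over 9h was 0.01 for nuclear and 0.12 for mitochondrial members, beside 0.05 for all genes tested.

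Uqcrc2 and Uqcrc1 are the large core proteins of complex III. Uqcrc2 was at 64.1 and 82.1 FPKM at 9h on high-fat and 76.6 and 75.6 FPKM at 9h on standard diet, at 57.5 and 64.1 FPKM at 15h on high-fat and 58.0 and 56.8 FPKM at 15h on standard diet, and at 55.2 and 58.4 FPKM at 21h on high-fat and 50.8 and 54.3 FPKM at 21h on standard diet. No 21h library reached any 9h library. The log2 fold change of 21h over 9h was -0.44 ± 0.09 (SE, limma adjusted p = 0.0285). Uqcrc1 was at 71.3 and 88.5 FPKM at 9h on high-fat and 86.5 and 81.9 FPKM at 9h on standard diet, against 57.4 and 61.8 FPKM at 21h on high-fat and 63.2 and 55.9 FPKM at 21h on standard diet, again without overlap (-0.45 ± 0.09, limma adjusted p = 0.0331).

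Atp5b, the catalytic beta subunit of ATP synthase, was at 283 and 331 FPKM at 9h on high-fat and 318 and 303 FPKM at 9h on standard diet, against 229.5 and 247 FPKM at 21h on high-fat and 255 and 236 FPKM at 21h on standard diet (-0.35 ± 0.08, limma adjusted p = 0.0424). Ndufv1, which binds NADH in complex I, was at 50.3 and 67.3 FPKM at 9h on high-fat and 59.9 and 59.5 FPKM at 9h on standard diet, against 43.1 and 46.9 FPKM at 21h on high-fat and 45.7 and 42.7 FPKM at 21h on standard diet (-0.40 ± 0.09, limma adjusted p = 0.0438). Sdha was at 63.4 and 73.8 FPKM at 9h on high-fat and 69.7 and 68.9 FPKM at 9h on standard diet, against 53.2 and 56.3 FPKM at 21h on high-fat and 58.0 and 53.2 FPKM at 21h on standard diet (-0.32 ± 0.08, limma adjusted p = 0.0497). All 21h libraries were below all 9h libraries in these 3 genes, and the high-fat library 6 was the lowest of the 9h libraries in each.

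Ndufb2 ran the other way, at 1.27 and 0.54 FPKM at 9h on high-fat and 0.63 and 0.77 FPKM at 9h on standard diet, against 1.75 and 1.88 FPKM at 21h on high-fat and 1.21 and 1.44 FPKM at 21h on standard diet (0.52 ± 0.13, limma adjusted p = 0.0462). Its times overlapped, and its values lie near the filter, which it passed through the later times. Next in order were Ndufa9, an accessory subunit of complex I, and Atp5a1, with -0.29 ± 0.07 and -0.34 ± 0.09 (limma adjusted p = 0.0504 and 0.0562). The calls depended on single libraries. Leaving out the high-fat 9h library 6 gave 16 called members. Leaving out the high-fat 9h library 7, either standard-diet 9h library or any 21h library gave none, and leaving out either standard-diet 15h library gave 1.

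**Figure D5:**
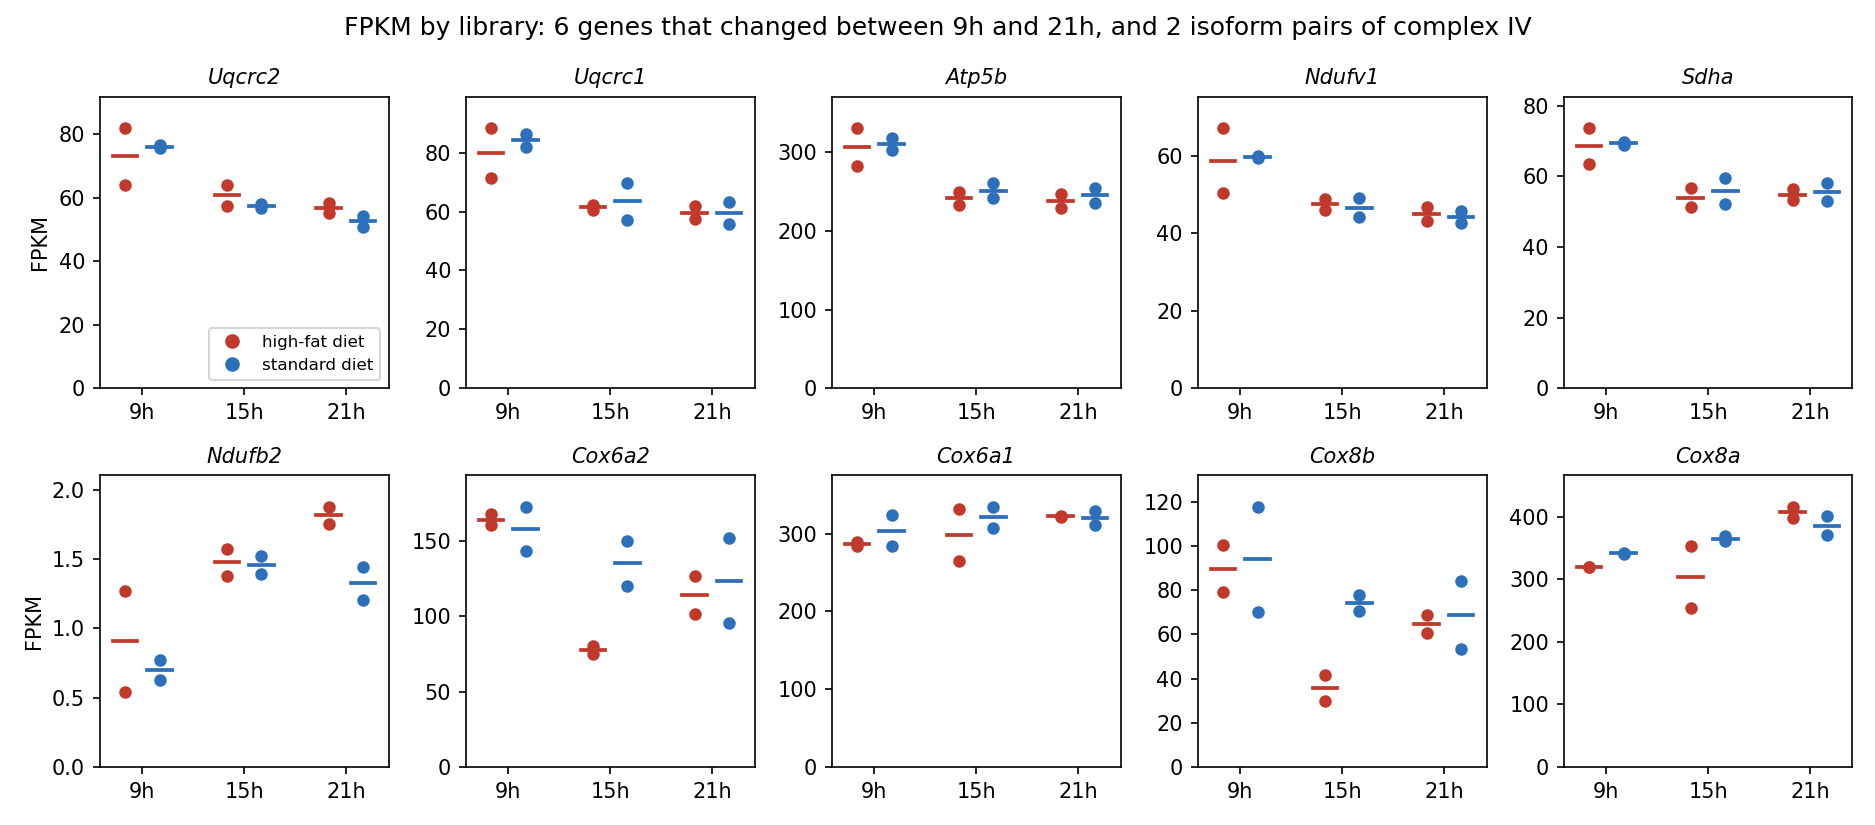
FPKM in every library by time, high-fat left of standard diet, with bars at group means, for the 6 members called between 9h and 21h and for 2 pairs of complex IV isoforms. Uqcrc2, Uqcrc1, Atp5b, Ndufv1 and Sdha have their highest group means at 9h, and Cox6a2 and Cox8b are lowest at 15h on high-fat diet, where Cox6a1 and Cox8a differ less between diets.

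Values for 15h over 9h had the same sign for Uqcrc1 and Sdha, without a call. The 3 members with the smallest p for 15h over 9h were Cox6a2, Sdha and Uqcrc1, with log2 fold changes of -0.65 ± 0.15, -0.32 ± 0.08 and -0.39 ± 0.09 (limma adjusted p = 0.0849, 0.0883 and 0.0885). No member was called for 15h over 9h, against 0.0227% of all genes, and 31 of 94 had an unadjusted p under 0.05, 28 of them lower, against 8.87% of all genes lower and 14.3% higher; limma-voom called none and counted 30. Without the high-fat 9h library 6, 26 members were called. For 21h over 15h no member and no gene was called (0% called), with 22 of 94 members at an unadjusted p under 0.05, all higher, against 1.62% of all genes lower and 2.83% higher; limma-voom called none and counted 24. The smallest p were those of small subunits, Uqcrh, the hinge protein of complex III (0.28 ± 0.09), Atp5e, the epsilon subunit of ATP synthase (0.36 ± 0.11), and Atp5md, an accessory subunit of it (0.46 ± 0.15), each with a limma adjusted p of 1.00. In the test of time over all 3 collections, with both diets together, no member was called, against 1.46% of all genes, and 37 of 94 had an unadjusted p under 0.05, against 23.6% of all genes; limma-voom counted 37 and called 1. The smallest adjusted p were 0.0634 for Uqcrc2, 0.0673 for Uqcrc1 and 0.0785 for Atp5b. Without the high-fat 9h library 6, 16 members were called.

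Within one diet, time gave no called member. In high-fat tissue 45 of 94 members had an unadjusted p under 0.05, against 8.73% of all genes, and no gene was called (0% called); limma-voom called none and counted 48. The smallest p belonged to Cox6a2, Cox8b and Ndufb4, an accessory subunit of complex I (limma adjusted p = 0.290, 0.309 and 0.312). On standard diet 16 of 94 members had an unadjusted p under 0.05, against 18.3% of all genes, and 0.0227% of all genes were called; limma-voom called no member and counted 15. There the smallest p belonged to Uqcrc2, Cox4i2, an isoform linked to low oxygen, and Uqcrc1 (limma adjusted p = 0.175, 0.175 and 0.183). Without either high-fat 9h library 2 members were called on standard diet, since all groups share 1 estimate of the spread.

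Length again went along with the difference between 9h and 21h, in the other direction. Nuclear members under 600 bases had a median of 0.19 for 21h over 9h, those from 600 to 1000 bases -0.06 and those over 1000 bases -0.16, against 0.22, 0.13 and 0.05 for all genes tested of the same lengths. With the trend over all genes taken out, 12 members were called and the nuclear median was -0.14. Ndufb2 (0.31, limma adjusted p = 0.179) and Sdha (-0.35, limma adjusted p = 0.0553) were not among those 12. Cytosolic ribosomal protein genes, which are short, had a median of 0.44, and 36 of 80 were called, all higher. The part of length in these differences was not tested beyond this.

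Of the lists around the chain, the counts of genes called between 9h and 21h are to be read against the 6.02% of all genes. These lists include subunits of the chain that the name rules leave out. Of the 4 such subunits tested, Ndufab1 was called higher at 21h (0.50 ± 0.10, limma adjusted p = 0.0322). In the tricarboxylic acid cycle 4 of 14 genes were called lower at 21h than at 9h and none higher, with a median of -0.30. Ogdh, the E1 subunit of the 2-oxoglutarate dehydrogenase complex, differed by -0.60 ± 0.11 (limma adjusted p = 0.0250). Among 12 carriers, cytochrome c and coenzyme Q genes, Slc25a4, the ADP/ATP carrier of muscle and heart, and Coq8a, of coenzyme Q synthesis, were called lower (-0.65 ± 0.15 and -0.67 ± 0.14). In the longer lists the share called lay near or below that of all genes. Of 41 assembly factors, Cox19 and Coa6, both of complex IV, were called higher and Cox11, its copper chaperone, lower. Of 34 genes of mitochondrial DNA expression, Polrmt, the mitochondrial RNA polymerase, was called lower (-0.32 ± 0.07) and Polg2, the accessory subunit of the DNA polymerase, higher (0.44 ± 0.11). Of 77 mitochondrial ribosomal protein genes 3 were called higher, with Mrps6, of the small subunit, at 0.90 ± 0.14 (limma adjusted p = 0.0221). Ppargc1a, the coactivator that drives mitochondrial biogenesis, was at 1.55 and 2.32 FPKM at 9h on high-fat and 1.69 and 1.70 FPKM at 9h on standard diet, against 1.10 and 1.17 FPKM at 21h on high-fat and 1.14 and 0.93 FPKM at 21h on standard diet. All its 21h libraries were below its 9h libraries (-0.43 ± 0.12, limma adjusted p = 0.0615), and none of the 12 biogenesis regulators was called.

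Skeletal muscle markers also differed between 9h and 21h. All 21 were lower at 21h than at 9h, with a median of -0.73, and 11 were called. Their mean log2(FPKM + 1) was 6.89 and 7.14 at 9h on high-fat and 7.002 and 6.84 at 9h on standard diet, 6.18 and 5.86 at 15h on high-fat and 6.58 and 6.22 at 15h on standard diet, and 6.02 and 6.29 at 21h on high-fat and 6.48 and 5.92 at 21h on standard diet. No later library reached a 9h library. For 21h over 15h the muscle markers had a median of -0.03, with 9 of 21 above 0. The nuclear members had a median of 0.17 there, with 70 of 82 above 0. The part of muscle in the falls of the respiratory genes was not tested.

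The isoforms of complex IV separate muscle from other cells within the chain. Cox6a2, Cox7a1 and Cox8b are the heart and skeletal muscle forms of subunits whose widespread forms are Cox6a1, Cox7a2 and Cox8a, and Cox8b is also high in brown fat. Cox6a2 FPKM were 55.5% and 59.1% of Cox6a1 FPKM at 9h on high-fat and 53.4% and 50.5% at 9h on standard diet. At 15h they were 28.4% and 24.3% on high-fat and 44.9% and 39.1% on standard diet, and at 21h they were 31.4% and 39.3% on high-fat and 46.3% and 30.6% on standard diet. The ratio was higher at 9h than at any later time in every library, and the diets did not overlap at 15h. Cox7a1 over Cox7a2 averaged 42.9% at 9h, 25.2% at 15h and 30.7% at 21h, and Cox8b over Cox8a averaged 27.8%, 16.0% and 16.8%. At 15h Cox7a1 was 21.1% and 18.4% of Cox7a2 on high-fat and 34.5% and 26.9% on standard diet. Cox8b was 11.7% of Cox8a in both high-fat libraries at 15h, against 21.0% and 19.5% on standard diet.

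The widespread isoforms moved less than their muscle partners. For 15h over 9h the log2 fold changes were -0.65 ± 0.15 for Cox6a2, -0.72 ± 0.20 for Cox7a1 and -0.80 ± 0.20 for Cox8b, against 0.06 ± 0.09 for Cox6a1, 0.04 ± 0.07 for Cox7a2 and 0.00 ± 0.10 for Cox8a. At 15h the diet differences were -0.78 ± 0.21, -0.72 ± 0.28 and -1.05 ± 0.28 for the muscle forms Cox6a2, Cox7a1 and Cox8b, and -0.12 ± 0.13, -0.12 ± 0.09 and -0.28 ± 0.15 for Cox6a1, Cox7a2 and Cox8a. None of the 6 genes was called by limma in either comparison, and the difference within a pair was not tested. Cox8b was also 1 of the 4 tested genes on the list of brown adipocyte markers. Those 4 genes averaged 6.14 to 6.79 on the log2(FPKM + 1) scale over the libraries. The average leaves out Ucp1 and Zic1 of that list, which did not pass the filter and reached at most 0.13 and 0.60 FPKM. It includes Cidea, at 437 to 755 FPKM. The part of brown fat in the values of Cox8b was not tested.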

How the data were processed

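The deposited table held FPKM values for 12 libraries, in which the authors divided reads by merged exon length and by depth. Per the submitters' processing notes HISAT2 2.0.5, HTSeq 0.9.1, DESeq 1.30.0 and build mm9 were named, but 21894 of 21936 gene IDs, and the lengths behind the values, fit GENCODE release 21 on GRCm38, and 98.1% of nonzero values were whole reads within 0.02 reads. The sources used here do not give strand or how reads with several places were counted. All coordinates are GRCm38.

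Values were tested as log2(FPKM + 1) with limma 3.58.1 (trend) in R 4.3.3, for genes above 1 FPKM in at least 2 libraries, with 1 mean for each of the 6 groups and Benjamini-Hochberg adjustment over 13228 genes; this scale understates changes of low genes. The test was tried on simulated counts for the diet comparison averaged over times only. The simulation held no trend with length and no shift between cell types, so it does not bear on their effect on the calls. Sets are described by counts and medians, without a test. Members and lists were chosen with earlier results of these data known. Named were the mitochondrial genes, called members, otherwise the 3 smallest p of a comparison, complex IV isoforms, and the extremes of each complex and of the filter. Other genes were chosen after their values were seen. Alternatives were a pseudocount of 0.1, no filter, equal medians, quantile normalization, scaling without mt- genes, a replicate block, single-time fits, limma-voom on recovered reads (952 genes called between 9h and 21h, 236 for diet averaged over times), and each library left out. The length trend and the subset of mitochondrial genes with under 75% shared stretches were added after seeing the data. A few genes that the rule names are not reported here.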

Additional observations from a re-analysis of the deposited data

How the results depend on the processing

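The nuclear median at 15h stayed below 0 under all 9 alternatives besides leaving out libraries (-0.41 to -0.14), the lowest size being that with the length trend taken out (-0.14), where the mitochondrial median at 15h was 0.095. That alternative also gave 12 called members, without Ndufb2 and Sdha, and a nuclear median of -0.14 for 21h over 9h. Called members for 21h over 9h were 2 without the filter and 0 with a replicate block, and limma-voom called 1 member for time in both diets. The samples share only a number: deviations of same-numbered libraries correlated between -0.50 and 0.29. With the replicate block the mitochondrial medians were 0.38 for diet averaged over times, 0.58 at 9h and 0.39 at 21h for diet and -0.057 for 21h over 9h, and the nuclear median for diet at 9h was -0.16. Leaving out 1 library at a time gave 0 to 16 called members for 21h over 9h, 0 to 26 for 15h over 9h, 0 to 16 for time in both diets, 0 to 2 for time in standard diet and 0 to 1 for diet at 9h. The mitochondrial median ranged from -0.42 to 0.22 for diet at 15h and from -0.22 to 0.11 for 21h over 15h. The causes were not tested. Of the single genes named by their p, none changed direction; 75 values lost and 9 gained a call. With 2 libraries per group and 1 shared spread, small differences were not detectable.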
